A study of Homo sapiens with 4 samples.

Results

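Transforming growth factor beta (TGF-beta) signalling was examined through 10 of its genes in U87 cells, an established human line from a glioblastoma. They are the ligand genes TGFB1 and TGFB2, the latency protein genes LTBP1 and LTBP2, the receptor genes TGFBR1 and TGFBR2, the feedback genes SMAD7 and SKIL, and the target genes ID1 and ID3. They were taken by gene symbol and make up 10 of 22031 genes, and 45 of the 100809 transcripts, in the deposited table. Both groups received an oligonucleotide at 50 nM in Lipofectamine 2000 and were measured at 48 h. The treated group (2 libraries, mimic 1 and mimic 2) received a mimic of tRF-3009a, a short RNA cut from a transfer RNA at its 3′ end, and the control group (2 libraries, control 1 and control 2) received single-stranded siGL2, one strand of an siRNA against luciferase. No untransfected cells were analysed here, all libraries come from a single line, and separate cultures behind the libraries of each group are not named in the labels, so the p-values measure only the spread between these libraries, which may be technical. The study was made for predicting the target genes of transfer RNA fragments.

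TGF-beta is secreted in a latent complex, folded inside its own propeptide and held in the extracellular matrix by latent TGF-beta binding proteins. Released ligand binds the type II receptor, which activates the type I receptor, and this phosphorylates SMAD2 and SMAD3, which enter the nucleus with SMAD4. The pathway limits itself through genes it induces, SMAD7 and SKIL among them, and it acts on the ID genes together with the bone morphogenetic proteins (BMPs), which signal through SMAD1, SMAD5 and SMAD9. In glioblastoma TGF-beta is known as an autocrine factor tied to invasion and to the upkeep of stem-like cells.

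Recovered reads ran from 28860788 to 33848402 a library. The libraries differed widely by their label number: 8891 of 16535 genes tested (53.8%) differed between the libraries numbered 2 and those numbered 1, and 3192 genes (19.3%) differed more than 2-fold. The labels do not say what a number stands for, and it is treated below as a description of the libraries, not as a condition. Of the markers of the line, VIM stood between 121239 and 276546, CD44 between 17935 and 41466 and CHI3L1 between 1328 and 1609, while GFAP reached at most 29.7 and SOX2 at most 18.0. CDKN2A and MTAP, which this line is known to have lost, reached at most 11.2 and 41.5. The marker sums of endothelium ran from 25.8 to 68.3, those of epithelium from 269 to 346 and those of immune cells from 7241 to 10226, nearly all of it CD68, with PTPRC at most 6.7. The neuron sum was 798 and 734 in number 1 against 114 and 110 in number 2, nearly all from SNAP25, and VIM, CD44 and NES were also lower in both libraries of number 2, while OLIG2 was higher there (411 and 419 against 101 and 83.6). The part of these markers in the differences between numbers was not tested. In RNA from bulk cultures, fewer cells of a type and less RNA in each cell cannot be told apart.

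The start regions of 4 genes are shown: LTBP2, ID1 and SKIL, which differed most between numbers, and LTBP1, which is made from 2 promoters. They are RefSeq windows on GRCh38.p14, 5′ to 3′ on the strand of the gene (minus for LTBP2, plus for the others). Each was cut before the first base of any GENCODE transcript of the gene that starts inside it. The second LTBP1 window lies within the span of LTBP1-203, a transcript that starts further upstream. Capitals mark matches, on either strand, to 5 short motifs that were chosen after the sequences had been seen. The motifs are CAGAC (a core of SMAD sites), GGCGCC (a GC-rich SMAD site), TGACGTCA (the cyclic AMP response element), CACGTG (an E-box) and TATAAA (the TATA box).
LTBP2, chr14:74612379-74612487: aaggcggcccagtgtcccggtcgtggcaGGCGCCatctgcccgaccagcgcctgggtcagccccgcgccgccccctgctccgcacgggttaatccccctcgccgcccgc
ID1, chr20:31605039-31605282: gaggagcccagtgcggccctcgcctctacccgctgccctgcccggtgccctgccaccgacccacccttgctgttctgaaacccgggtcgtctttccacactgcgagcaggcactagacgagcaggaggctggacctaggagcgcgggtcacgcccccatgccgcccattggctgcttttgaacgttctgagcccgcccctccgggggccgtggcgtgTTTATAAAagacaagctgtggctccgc
LTBP1 distal, chr2:32946703-32946952: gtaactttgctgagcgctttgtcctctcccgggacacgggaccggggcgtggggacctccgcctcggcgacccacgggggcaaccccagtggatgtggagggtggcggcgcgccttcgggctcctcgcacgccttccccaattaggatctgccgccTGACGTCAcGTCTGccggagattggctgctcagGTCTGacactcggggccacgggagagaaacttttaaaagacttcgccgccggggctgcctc
LTBP1 upstream of the proximal starts, chr2:33134119-33134368: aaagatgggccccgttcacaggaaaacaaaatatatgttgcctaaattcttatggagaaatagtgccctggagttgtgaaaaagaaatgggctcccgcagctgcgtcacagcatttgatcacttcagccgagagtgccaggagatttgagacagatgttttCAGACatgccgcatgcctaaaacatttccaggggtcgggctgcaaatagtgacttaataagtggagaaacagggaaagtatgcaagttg
SKIL, chr3:170357465-170357677: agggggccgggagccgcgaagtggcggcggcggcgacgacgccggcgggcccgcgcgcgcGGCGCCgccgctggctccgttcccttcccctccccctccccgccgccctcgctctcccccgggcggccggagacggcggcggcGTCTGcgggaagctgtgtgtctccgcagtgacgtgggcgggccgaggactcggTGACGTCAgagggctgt

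LTBP2 held GGCGCC 222 bases before its RefSeq start and none of the other 4 motifs. The ID1 window held TTTATA, the reverse complement of TATAAA, 33 bases before the start and TATAAA itself at 31 bases, in overlapping letters. Among 35116 windows of 250 bases, the TATA box in either strand was found in 10.7%. The distal LTBP1 window held TGACGTCA 94 bases before the start, followed by GTCTG, the reverse complement of CAGAC, at 85 and 61 bases. The other LTBP1 window ends before a RefSeq start at 33134369, upstream of the GENCODE starts of the short forms (33134597 to 33134657), and held CAGAC 89 bases before that RefSeq start. Its GC content was 45.2%, against 66.4% in the distal window and a median of 58.0% over all windows. The RefSeq window next to the short forms (start 33134596, GC content 47.6%) held GTCTG at 120 bases. It is not printed because a transcript starts inside it and most of it would be cut. The SKIL window (GC content 78.4%) held GGCGCC at 190, GTCTG at 107 and TGACGTCA at 54 bases before the start. CAGAC was found in 38% of windows, GGCGCC in 16.4%, CACGTG in 6.35% and TGACGTCA in 1.65%. TGACGTCA has the most letters of the 5, and a longer motif matches less often. The motifs were chosen with these sequences seen, so the matches of TGACGTCA in distal LTBP1 and SKIL carry no weight as evidence. These matches describe the letters and say nothing of binding.

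The first comparison asked whether the 10 genes differed between the mimic and the control. No gene was called by limma, fitted to log2(value + 1) of all 16535 genes with a mean of at least 10 (0%), and 26 genes had an unadjusted p under 0.05. All 10 members passed that filter, 0 of 10 were called or had an unadjusted p under 0.05, and the adjusted p was 1.00 for each. On recovered reads, edgeR also called 0 genes (35 with an unadjusted p under 0.05) and DESeq2 0 (23). These fits had no term for the number, and the closing section gives the fits that had it. Beyond the test, 8 of the 10 had a lower mean log2 value in the mimic, as did 53.8% of all genes tested, and the median difference of the 10 was -0.10 on the log2 scale against -0.01 over all genes. The median size of the difference was 0.11 for the 10 and 0.11 for all genes, and TGFB1 was the one member whose difference exceeded its standard error. Fold changes are on the log2(value + 1) scale throughout, each with its standard error from limma (SE, n = 2 per group), and the counting error of the lowest value of each member was 1.16% to 4.74%.

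**Figure D1:**
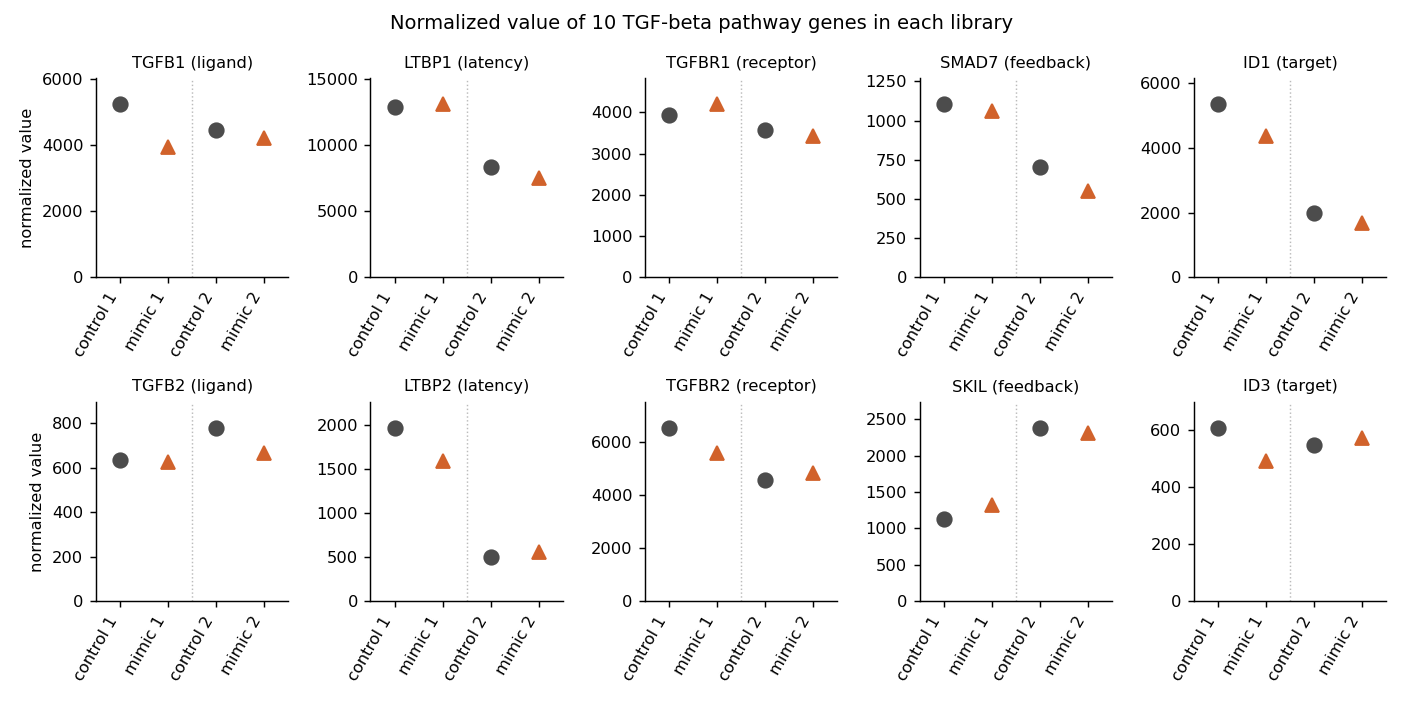
Normalized value of the 10 genes in each library (vertical axes from 0, 1 panel a gene, genes of a role above each other), with controls as circles, mimic libraries as triangles and a dotted line between numbers 1 and 2. LTBP1, LTBP2, SMAD7 and ID1 step down and SKIL steps up from number 1 to number 2 in both groups, while mimic and control lie close within a number.

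Among the ligands, TGFB1 encodes the main TGF-beta of most tissues. Controls 1 and 2 had values of 5227 and 4441, and mimic libraries 1 and 2 had 3951 and 4202. Both mimic libraries lay below both controls, which made TGFB1 the only member whose groups did not overlap. Of the 16535 genes tested, the mimic lay wholly below the control at 1026 (6.21%) and wholly above it at 1022 (6.18%). The mean was 4834 ± 556 in the control and 4077 ± 177 in the mimic (SD, n = 2), a log2 difference of -0.24 ± 0.20. Most of it came from number 1, where the difference was -0.40, against -0.08 in number 2.

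TGFB2, the ligand first described as a factor of glioblastoma cells that suppresses T cells, had values of 635 and 778 in the control libraries against 624 and 664 with the mimic. The groups overlapped, and control 2 was the highest library. The log2 difference was -0.13 ± 0.24, made up of -0.02 in number 1 and -0.23 in number 2.

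Of the latency proteins, LTBP1 binds the latent TGF-beta complex and anchors it to the matrix. The control libraries had 12907 and 8349 and the mimic libraries 13097 and 7510, here and below with number 1 first. The groups overlapped over nearly their whole range, and the log2 difference was -0.07 ± 0.39. LTBP2, a matrix protein that unlike LTBP1 does not bind latent TGF-beta, had 1969 and 499.8 with the control oligonucleotide and 1590 and 562 with the mimic. Its within-number differences had opposite signs, -0.31 in number 1 and 0.17 in number 2, and the log2 difference of -0.07 ± 0.87 had the widest error of the 10.

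Of the receptors, TGFBR1, the type I receptor kinase, had control values of 3932 and 3577 and mimic values of 4193 and 3438. The mimic libraries lay outside the controls on both sides, with a log2 difference of 0.02 ± 0.21. TGFBR2, the type II receptor that binds the ligand first, had control values of 6526 and 4573 and mimic values of 5586 and 4826. Here the controls lay outside the mimic libraries, and the log2 difference was -0.07 ± 0.26.

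Of the feedback genes, SMAD7 encodes an inhibitory SMAD that brings ubiquitin ligases to the type I receptor. Its control values were 1103 and 702 and its mimic values 1058 and 548. The mimic library was below the control in each number, by 0.06 in log2 terms in number 1 and by 0.36 in number 2, while the log2 difference over all libraries was -0.21 ± 0.45. SKIL encodes SnoN, a co-repressor that binds SMADs on DNA and is degraded when TGF-beta acts. Its control values were 1135 and 2381 and its mimic values 1329 and 2314, with a log2 difference of 0.09 ± 0.50 and opposite signs within the numbers (0.23 and -0.04).

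Of the ID genes, which encode helix-loop-helix proteins without a DNA-binding region that hold E proteins off DNA, ID1 had control values of 5354 and 2006 and mimic values of 4385 and 1669. ID1 was the member with the most even difference within numbers: the mimic value was 18.1% below the control in number 1 and 16.8% below it in number 2, or -0.29 and -0.27 in log2 terms. Over all libraries the log2 difference was -0.28 ± 0.70, since the means of 3680 ± 2367 in the control and 3027 ± 1921 in the mimic (SD, n = 2) carry the gap between the numbers. ID3 had control values of 606 and 547 and mimic values of 490 and 571, with a log2 difference of -0.12 ± 0.24 and opposite signs within the numbers (-0.31 and 0.06). Of the 10 genes, TGFB1, TGFB2, SMAD7 and ID1 were lower in the mimic within both numbers and 0 were higher in both, while 27.7% of all genes were lower in both.

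**Figure D2:**
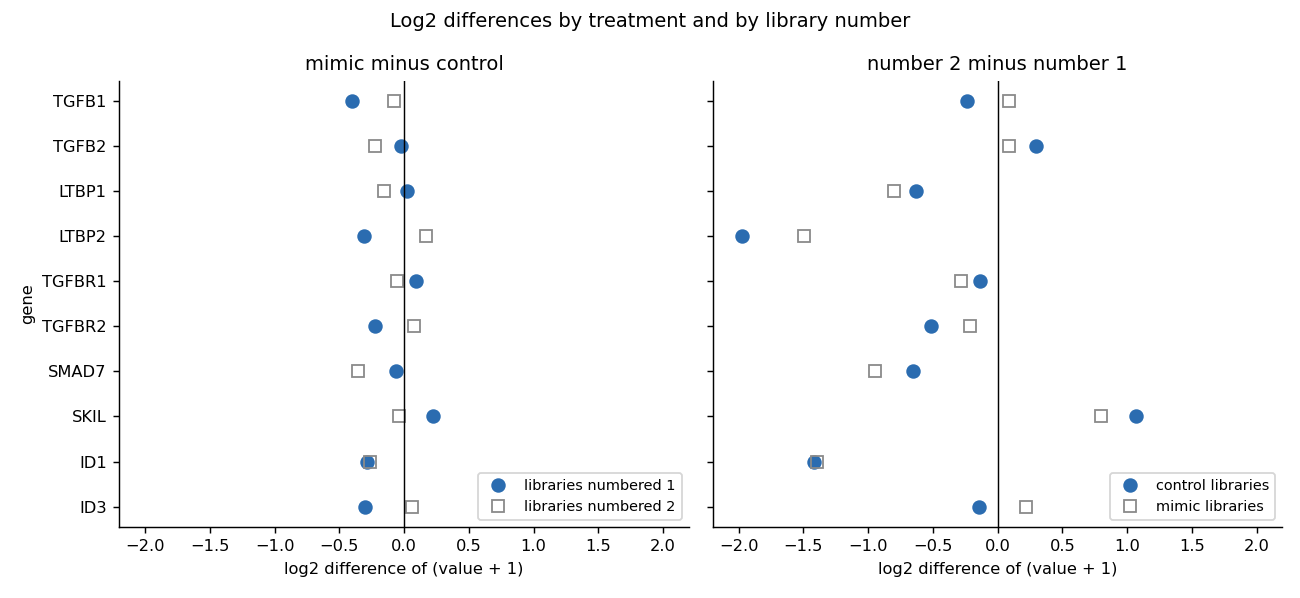
Log2 differences of (value + 1) for each gene, between mimic and control within each number (left) and between numbers 2 and 1 within each treatment (right), on the same horizontal scale. On the left all points lie between -0.40 and 0.23, and on the right LTBP2 and ID1 lie beyond -1.3 in both treatments and SKIL at 0.80 and 1.07.

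The second comparison set number 2 against number 1, with treatment as a term. Of the 10 members, 5 were lower and 1 higher in number 2 by limma, 6 of 10 in all. The same fit called 53.8% of all genes (25.9% lower and 27.9% higher), so by limma the share of the members is near the background. On recovered reads edgeR called 8793 genes and 7 of the 10, and DESeq2 6156 genes and 6 of the 10, so the background depends on the tool. The limma fit leaves 1 residual degree of freedom, and limma then takes the variance from the trend over all genes. Neither the standard error nor the adjusted p of a gene between numbers, here and in the pathway lists below, therefore rests on its own spread. The median log2 difference of the members was -0.29, against 0.01 over all genes, and its median size was 0.54 against 0.45.

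LTBP2 fell most among the 10. Its mean in number 1 was 3.35 times that in number 2, the log2 difference was -1.98 within the control group and -1.50 within the mimic group, and the fitted value was -1.74 ± 0.12 (limma adjusted p = 7.24e-47). ID1 followed, with a ratio of 2.65 and differences of -1.42 and -1.39 (-1.40 ± 0.10, limma adjusted p = 3.64e-44). These were the 2 members past 2-fold. SMAD7 fell by 0.80 ± 0.12 on the log2 scale and LTBP1 by 0.72 ± 0.09, ratios of 1.73 and 1.64 between number 1 and number 2. TGFBR2 fell by 0.36 ± 0.09 (limma adjusted p = 0.000365), a call that was lost without control 2 or without mimic 2. The differences were then -0.32 and -0.40, from fits with no treatment term and a single library in number 2.

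SKIL was the one member that rose. Its mean in number 2 was 1.91 times that in number 1, by 1.07 in log2 terms in the controls and 0.80 in the mimic libraries (0.93 ± 0.11, limma adjusted p = 1.94e-17). SMAD7 and SKIL, both inhibitors of the pathway, thus lay on opposite sides. TGFBR1 was lower in number 2 in both treatments (-0.14 and -0.29), and its fitted difference of -0.21 ± 0.10 did not pass (limma adjusted p = 0.0523). It passed with a pseudocount of 5 (0.0498), a minimum mean of 50 (0.0454), edgeR (0.0472) or no treatment term (0.0498). It did not pass with a pseudocount of 0.5 (0.0532), no filter (0.0704), another scaling (0.0557), limma on recovered reads (0.0819) or DESeq2 (0.111). With a library left out its difference ran from -0.26 to -0.17. TGFB2 was higher in number 2 in both treatments (0.29 and 0.09) and did not pass (limma adjusted p = 0.209). TGFB1 (-0.07 ± 0.10, limma adjusted p = 0.542) and ID3 (0.04 ± 0.14, limma adjusted p = 0.842) had overlapping numbers with opposite signs in the treatments. Without mimic 1 the TGFB1 difference was -0.27, but that fit had no treatment term, so the treatment difference enters it. ID1 and ID3 belong to one family, yet ID1 changed 2.65-fold between the numbers and ID3 had values from 490 to 606 in all libraries. Whether the 2 genes differ in this was not tested.

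Values per kilobase of transcript were used to set the genes beside each other. The mean level per kilobase was highest for ID1 (3312), followed by LTBP1 (2082), TGFB1 (1646), TGFBR2 (1165), TGFBR1 (675), SKIL (601), ID3 (448), SMAD7 (273), TGFB2 (179) and LTBP2 (152). Most neighbours overlapped in their range over the libraries, the exceptions being TGFB1 over TGFBR2, TGFBR2 over TGFBR1 and ID3 over SMAD7. TGFB1 thus stood above TGFB2 in every library, with 1454 to 1935 against 165 to 200 per kilobase. ID1 stood above ID3 in every library, by 5290 against 492 in control 1 and by 1654 against 459 in mimic 2. The order of other neighbours depended on the library. LTBP1 was above TGFB1 except in mimic 2, where it had 1475 and TGFB1 1567. SKIL was below TGFBR1 in number 1 and above it in number 2, with 799.9 against 643 in control 2 and 829 against 659 in mimic 2. LTBP2 was above TGFB2 in number 1, with 267 against 165 in control 1 and 205 against 183 in mimic 1, and below it in number 2.

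Single transcripts were then examined, since a sum can hide opposite changes. Reads that fit several overlapping transcripts are split between them by estimation, so these values are less certain than the sums. Of the 45 transcripts, 36 had a mean of at least 10 and 19 held at least 10% of their gene. Between mimic and control limma called 0 of the 36, and 0 of all 58500 transcripts tested (0%), with 922 at an unadjusted p under 0.05. The groups did not overlap for 2 of the 36 with the mimic lower (TGFB1-201 and TGFB2-202) and for 4 with the mimic higher (LTBP1-201, LTBP2-205, TGFBR1-201 and TGFBR1-207), against 10.4% and 10.1% of all transcripts tested. Of these, LTBP1-201 and LTBP2-205 were listed at 0 in both controls and had 38.7 and 49.7, and 51.2 and 44.0, in mimic 1 and mimic 2. They held at most 0.662% and 7.82% of their genes in a library, and were singled out after their values were seen. Between numbers 5 of the 36 were lower and 1 higher in number 2, while 1.44% of all transcripts tested were lower and 1.63% higher. The transcript fit called far less than the gene fit at a like difference. This also held at a like error: ID1-202, at -1.35 ± 0.09, had a limma adjusted p of 0.0286, while the ID1 sum, at -1.40 ± 0.10, had 3.64e-44. Adjusted p-values of the 2 fits should therefore not be set beside each other. SMAD7-201 differed by -0.84 ± 0.19 between numbers and did not pass (limma adjusted p = 0.116), while the SMAD7 sum, at -0.80 ± 0.12, passed. A transcript that did not pass may therefore still share the change of its gene.

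LTBP1 is made from 2 promoters 187625 bases apart. The short forms, 4 transcripts from the proximal promoter with proteins of 1340 to 1395 residues, held 98.2% and 98.9% of the gene in control 1 and mimic 1, and 94.8% and 95.2% in control 2 and mimic 2. The long form, LTBP1-203, starts at the distal promoter and encodes 1721 residues. Its value was 188 and 104 in the libraries numbered 1 (control first) and 401 and 350 in those numbered 2, higher in number 2 in both treatments. In log2 terms the long form differed by 1.09 in the control group and 1.74 in the mimic group, and the short forms by -0.68 and -0.86, so the forms lay on opposite sides. The long form did not pass by itself (limma adjusted p = 0.0866), and the difference between the forms was not tested. Within the short forms, LTBP1-202 (6312, 3007, 6399 and 3040 in control 1, control 2, mimic 1 and mimic 2) and LTBP1-207 fell, by 1.07 and 0.95 on the log2 scale (limma adjusted p = 0.0301 and 0.0451), while LTBP1-204 had 3137, 3148, 3728 and 2686 and did not pass (limma adjusted p = 0.409).

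In SKIL the 2 main transcripts differed in their pattern. SKIL-201, a transcript of 3057 bases, had 622, 1808, 741 and 2044 in control 1, control 2, mimic 1 and mimic 2, and rose in number 2 by 1.50 on the log2 scale (limma adjusted p = 0.0325). SKIL-204 encodes the same number of residues, 684, in a transcript of 7182 bases. It had 384, 349, 424 and 109 and did not pass (limma adjusted p = 0.303). The share of SKIL-204 in the gene was 33.8% and 31.9% in number 1 and 14.6% and 4.71% in number 2. SKIL-204 in mimic 2 was far below the other 3 libraries: number 2 differed from number 1 by -0.14 in log2 terms in the controls and by -1.95 in the mimic libraries. The difference between the transcripts was not tested.

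For ID1 both transcripts fell between numbers: ID1-202 (155 residues), with 4863, 1873, 3874 and 1543 in control 1, control 2, mimic 1 and mimic 2, and ID1-201 (149 residues), with 491, 133, 511 and 126. Their log2 differences were -1.35 and -1.94 (limma adjusted p = 0.0286 and 0.0417). ID1-201 held 9.40% of the gene, just under the 10% for naming, and is given because it passed. LTBP2-201, which held 82.3% to 96.2% of its gene, fell by 1.79 (limma adjusted p = 0.0332). TGFB1-201 held at least 99.3% of its gene and ID3-201 at least 96.0%.

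TGFB2, the receptors and SMAD7 used several transcripts, none of which passed either test. TGFB2-202, which encodes the 414-residue precursor, had 484, 472, 383 and 425 in control 1, control 2, mimic 1 and mimic 2, and was lower in both mimic libraries than in both controls. TGFB2-201, with 442 residues, had 69.6, 210, 115 and 166, which is 11.0%, 26.9%, 18.4% and 25.0% of the gene in the same order, and TGFB2-203, a transcript with no coding sequence, held the rest. TGFBR1-201, the 426-residue form, had 585, 856, 1218 and 934, so that both mimic libraries lay above both controls. The longer forms TGFBR1-209 (507 residues) and TGFBR1-202 (503 residues) held 47.1% and 27.6% of the gene on average. TGFBR2-201 (567 residues) held 69.6% to 73.7% of its gene and TGFBR2-202 (592 residues) the rest, a split that stayed within 5 percentage points. For SMAD7 the coding SMAD7-201 held 68.0% to 75.2%, and SMAD7-202, which retains an intron, 18.4% to 24.9%.

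**Figure D3:**
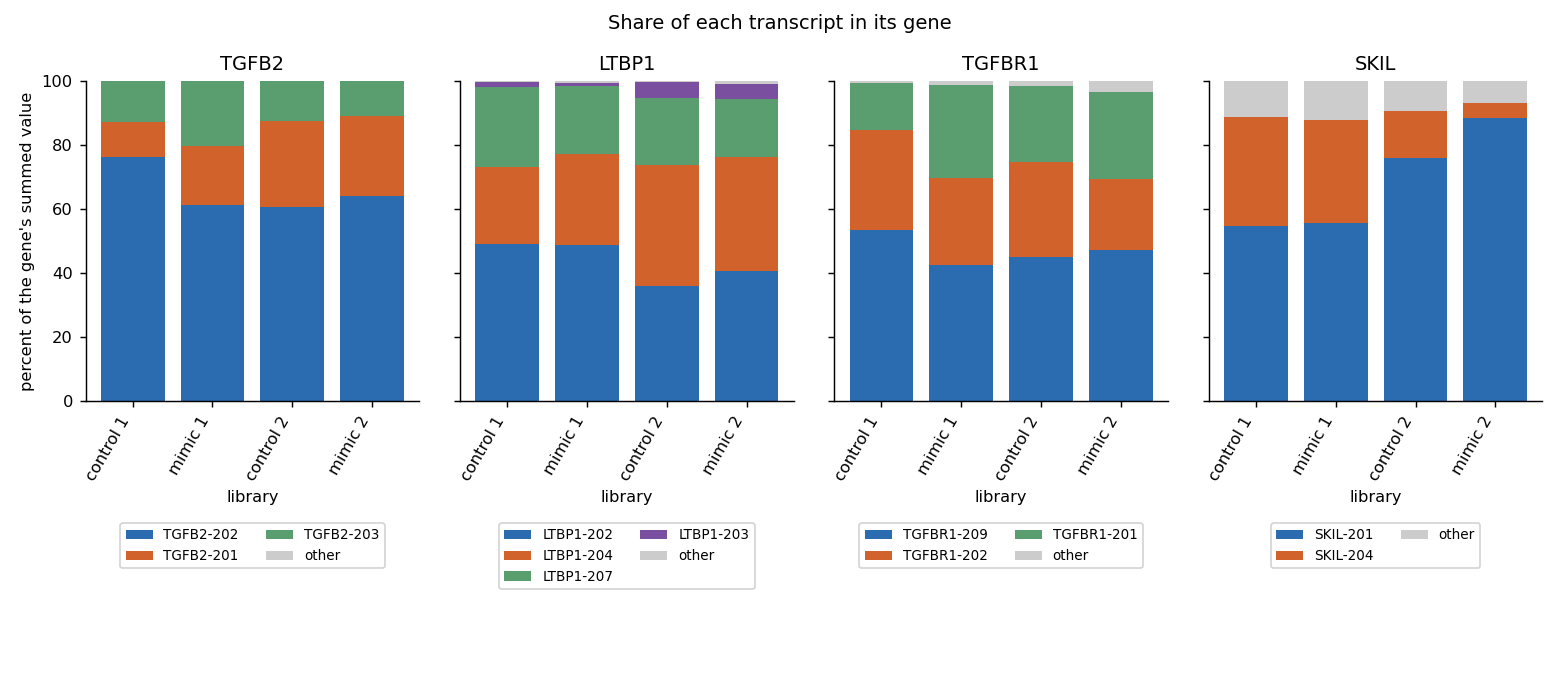
Share of each transcript in the summed value of its gene (vertical axis, percent) in the 4 libraries, ordered by number, for TGFB2, LTBP1, TGFBR1 and SKIL, with minor transcripts in grey. The distal LTBP1-203 holds 0.796% to 1.46% in number 1 and 4.66% to 4.81% in number 2, and SKIL-204 holds 33.8% and 31.9% in number 1 against 14.6% and 4.71% in number 2.

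The rest of the pathway was read from 8 lists with 90 other genes, of which 83 were in the table and 79 had a mean of at least 10. Between mimic and control 0 of the 79 were called by limma, 59 (74.7%) had a lower mean log2 value in the mimic, against 53.8% of all genes, and the median was -0.10, the same as for the 10 members. Between numbers 34 were lower and 22 higher in number 2, 56 of 79 (70.9%) against 53.8% of all genes.

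Of 8 genes tested in the list of other ligands, which holds BMP1 although it encodes a metalloprotease, 3 fell and 3 rose in number 2. BMP7, a BMP that signals through SMAD1 and SMAD5, had the largest difference by treatment (-0.78 ± 0.88) and by number (1.51 ± 0.59), at a low level of 9.35, 34.7, 6.29 and 16.2 in control 1, control 2, mimic 1 and mimic 2. Of 11 other receptors 5 fell and 4 rose. ENG, endoglin, an accessory receptor, fell by 1.18 ± 0.11 with number and differed by -0.32 ± 0.62 with treatment, from values of 2178, 812, 1482 and 770. Of 7 SMADs 3 fell and 1 rose. SMAD6, the inhibitory SMAD of the BMP branch, had 535, 204, 493 and 171 and fell by 1.45 ± 0.16, as SMAD7 fell. SMAD3, which carries the TGF-beta signal, fell by 1.10 ± 0.11 and had the largest treatment difference of its list, -0.19 ± 0.57.

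Of 12 latency and activation genes 7 fell in number 2 and 0 rose, with a median of -0.49. ITGB8, the integrin subunit that pairs with ITGAV to release TGF-beta, fell by 1.33 ± 0.23, from values of 177, 78.4, 198 and 68.8. LRRC32, which tethers latent TGF-beta to the cell surface, had the largest treatment difference there, -0.40 ± 0.45. Of 10 extracellular antagonists 5 fell and 3 rose. BGN, the proteoglycan biglycan, was largest by both measures, -1.43 ± 1.60 and 2.31 ± 0.81, on values of 10.4, 12.3, 0 and 20.1, which rest on few reads.

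Of 11 other intracellular feedback genes 3 fell and 5 rose. TGIF1, a co-repressor of SMADs like SKIL, rose by 2.05 ± 0.10 with number, from 1356 in both libraries of number 1 to 5476 in control 2 and 5759 in mimic 2. BAMBI, a decoy receptor, also rose (1.98 ± 0.22) and had a treatment difference of -0.33 ± 1.00. Of 5 other ID genes and partners 2 fell and 1 rose. TCF4, an E protein that ID proteins bind, fell by 1.84 ± 0.13 from 1392 and 1517 in number 1 to 414 and 397 in number 2, and ID4 had the largest treatment difference, -0.34 ± 0.33. Of 15 transcriptional targets 6 fell and 5 rose with number, and 15 of 15 had a lower mean log2 value in the mimic, against 53.8% of all genes, with a median of -0.11 and 0 called. Within the numbers 9 of the 15 were lower in both, against 27.7% of all genes. The other 6 had opposite signs, such as CCN2 (0.16 and -0.22) and TAGLN (0.29 and -0.57). The median size of the difference over all genes was 0.11. The 15 values come from the same 4 libraries and are not independent, and the list as a set was not tested. CCN2, connective tissue growth factor, fell by 1.91 ± 0.12, from 1814 and 2021 in number 1 to 551 and 473 in number 2, and COL4A1 had the largest treatment difference, -0.39 ± 0.79. Targets of the pathway therefore moved in both directions between the numbers.

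**Figure D4:**
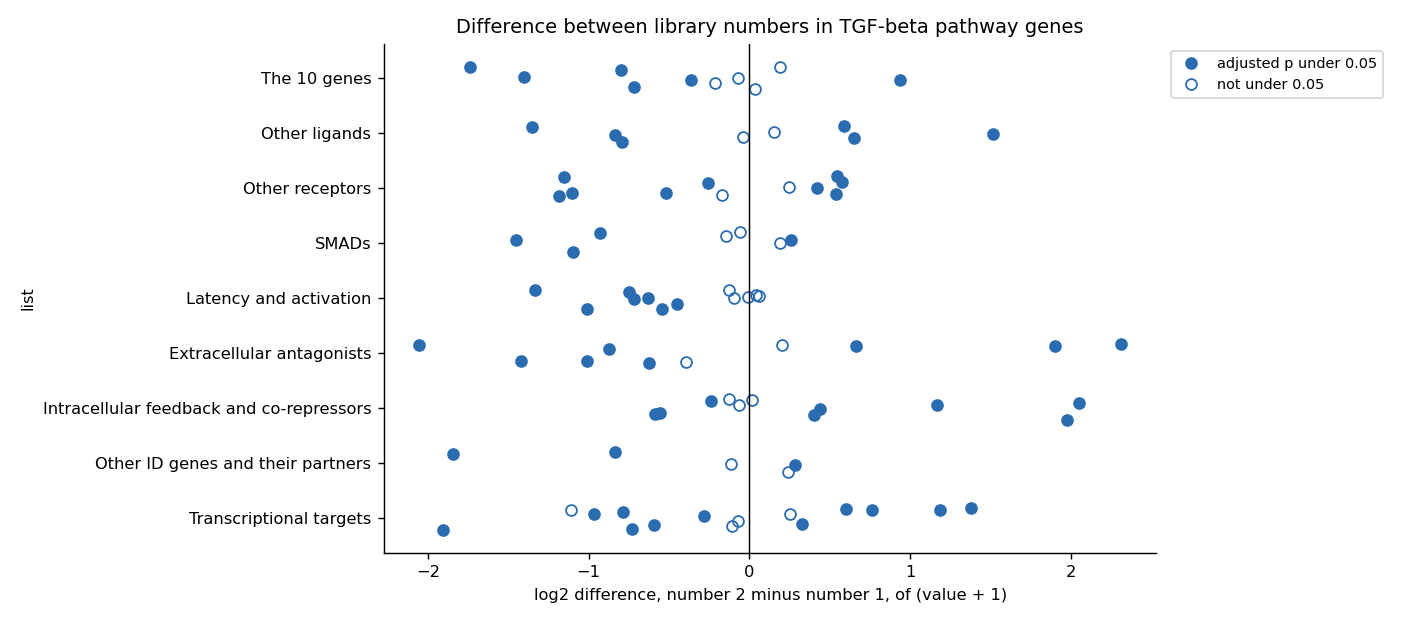
Log2 difference of (value + 1) between number 2 and number 1 for the 10 genes and 79 others in 8 lists (horizontal axis, 1 point a gene, vertical offsets only for legibility), filled where the limma adjusted p was under 0.05. Filled points lie on both sides of 0 in every list except latency and activation, where all 7 are below 0.

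Last, the gene with the most similar profile was sought for each member, as the smallest Euclidean distance of the centred log2 values over the 4 libraries among 11751 protein-coding genes with a mean of at least 50. The values were not scaled, so a member with a large difference between numbers tends to have fewer genes within a fixed distance. LTBP2 had the fewest genes within a distance of 0.2, 16, with LAYN nearest (0.050). ID1 had 54 such genes with GALK1 nearest (0.069), SMAD7 161 with RCAN3 nearest (0.045), and SKIL 266 with DYNC1LI1 nearest (0.032). The other members had more genes within that distance. LTBP1 had 567 genes within 0.2 (ERAP2 nearest), TGFB1 478 (B3GAT3), TGFBR2 728 (ANAPC2), ID3 778 (PWWP2B), TGFB2 995 (PARM1) and TGFBR1 1572 (SF3B1). With 4 libraries, such likeness describes the libraries only.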

How the data were processed

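Poly(A)-selected RNA was sequenced in pairs from 2 control and 2 mimic libraries, per the labels' protocols. Kallisto, DESeq2 and hg38 are named in the submitters' processing notes, with no version, and the annotation release is not given in the sources used here. The deposited table holds, for each Ensembl transcript, a signal that the authors made, judging by its values, from estimated reads divided by a scaling factor (normalized counts). In low values 95.6% to 99.7% were whole multiples of 1 read (tolerance 0.1), and these reads were used for edgeR and DESeq2. They are approximate for high values, since the step of 1 read differed slightly between transcripts. The lowest row sum was 10 reads.

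Identifiers without version matched GENCODE 29 (GRCh38) for 90643 of 100809 transcripts (89.9%). The others, 3.25% to 3.56% of each library's values, were left out, and matched values were summed per gene. Log2(value + 1) was tested with limma and a trend, two-sided, with Benjamini-Hochberg adjustment over all genes or transcripts with a mean of at least 10 and a threshold of 0.05. That scale understates the change of low genes. The fit for label numbers had treatment as a term, except where a library was left out or the term was dropped as an alternative. The fits were also run on simulated counts with known changes. Where treatment was changed, those counts held no difference between numbers, unlike these libraries, so the run checks only the calculation.

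The members, lists and motifs were chosen with earlier results of these data known. Named are the members, their transcripts with at least 10% of the gene, in each list the genes with the largest difference by treatment and by number, and the nearest profile of each member. Alternatives were other pseudocounts, filters and scalings, edgeR, DESeq2, a replicate block, no treatment term and each library left out. EdgeR and DESeq2 fits with a block were added later, with the data seen. Software was R 4.3.3, limma 3.58.1, edgeR 4.0.16, DESeq2 1.42.0, Python 3.11.15, numpy 2.4.6, pandas 2.3.3 and matplotlib 3.10.9.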

Additional observations from a re-analysis of the deposited data

How the results depend on the processing

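With replicate number as a block, limma called 117 genes between mimic and control, edgeR 91 and DESeq2 5 (the tools with a block were added after the data were seen), against 0 without it. Of the 10 members 0 were called in any of these fits, and their smallest adjusted p was 0.276 with limma, 0.355 with edgeR and 1.00 with DESeq2. Across genes, deviations of same-numbered libraries from their group means correlated at r = 0.745, but with 2 pairs and no label that explains the numbers these do not show the libraries to be paired. Under all settings that kept the 4 libraries, the blocks included, the 110 treatment differences of the members kept their direction. The limma block and the filters on low values cannot change these log2 differences, so their part of this was fixed in advance. Leaving out a library leaves groups that do not hold the same numbers, so the number difference enters the treatment difference by construction. The ranges were then -0.36 to -0.12 for TGFB1, -0.23 to -0.01 for ID3, -0.27 to 0.020 for TGFB2, -0.47 to 0.34 for LTBP1, -1.06 to 0.92 for LTBP2, -0.13 to 0.16 for TGFBR1, -0.33 to 0.18 for TGFBR2, -0.68 to 0.27 for SMAD7, -0.44 to 0.63 for SKIL and -0.98 to 0.43 for ID1. The difference between numbers ran from -0.27 to 0.13 for TGFB1 and from -0.12 to 0.19 for ID3. The count of genes that differed between numbers was 8891, and 5163 to 7980 with a library left out, lowest without mimic 2 (5163) and control 2 (5430). The number of members called between numbers was 5 to 7 under every setting run. Counting error was at most 4.74% for the members' gene sums and is larger for minor transcripts and low pathway genes.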
